A study of Homo sapiens with 10 samples.

Results

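SWI/SNF complexes use the energy of ATP to slide or evict nucleosomes, and so set how open chromatin is at promoters and enhancers. The expression of 10 genes that encode subunits of these complexes was examined out of 46427 genes in the deposited table. They were selected by symbol from general knowledge of the complex, but with earlier results of these data known. They are the ATPases SMARCA4 and SMARCA2, the core subunits SMARCB1, SMARCC1, SMARCC2 and SMARCD3, the BAF subunits ARID1A and ARID1B, and the PBAF subunits ARID2 and PBRM1. Each complex holds 1 of the ATPases, which are paralogs, and BAF and PBAF are versions of the complex told apart by their ARID and bromodomain subunits. Several of these genes are known as tumour suppressors in lung and other cancers, and A549 is known as a SMARCA4-deficient line.

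Poly(A) RNA was sequenced in 10 libraries from 2 established human lung cancer cell lines, H460 and A549. Parental H460 cells in two-dimensional (2D) culture gave 3 libraries. H460 cells that survived a drug and were re-plated after a period in fresh medium gave 4 libraries, 1 from cisplatin-resistant (CR), 2 from paclitaxel-resistant (PR) and 1 from doxorubicin-resistant (DR) cells. Tumor spheroid (TS) cells, passaged in suspension in serum-free medium, gave 1 library of each line, and A549 cells in 2D culture gave 1. The drug-resistant cells were survivors of drug exposure and not a cloned line, and every H460 comparison uses the same 3 parental libraries. The library names take 2 forms, whose meaning is not given: parental 2, PR 2, CR and DR have one form, and all other libraries the other. The labels do not say that replicates came from separate cultures, so the p-values measure only the spread between these libraries, which may be technical. The comparison of drug-resistant with parental cells pools the CR, PR and DR libraries as 1 group. Its spread therefore also holds differences between the drugs.

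Reads on genes ran from 59499787 to 89541774 per library. The epithelial keratins KRT8 and KRT18 were at 282.7 FPKM (read fragments scaled by transcript length and sequencing depth) or more and 190.4 FPKM or more in every library, while KRT7 and KRT19 fell to 2.37 and 3.57 FPKM in their lowest libraries. Of the leukocyte genes, PTPRC stayed at or under 0.157 FPKM, and CD14 ran from 2.37 to 17.1 FPKM. Replicates differed beyond counting noise, with correlations of log2 levels across genes from 0.955 to 0.981. Parental library 2 stood apart from the other parental libraries for these genes: 9 of the 10 were lower in it, with a median difference of -0.42 on the log2(FPKM + 1) scale, against 0.11 over all genes. Parental ranges include it unless stated otherwise, and calls among these genes that rest on it are given with and without it. In bulk RNA, fewer cells of a kind and less RNA per cell cannot be told apart.

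The start regions of 3 of these genes are shown because SMARCA4 and SMARCA2 are the ATPases whose proportion set the lines apart and SMARCB1 was lower in every drug-resistant library. Each is the 250 bases before a RefSeq start on GRCh38.p14, written 5′ to 3′ on the strand of the gene, with a GC box (GGGCGG on either strand) or a CCAAT box (CCAAT on either strand) in capitals. The windows are chr19:10960780-10961029 for SMARCA4, chr9:2015097-2015346 for SMARCA2 and chr22:23786716-23786965 for SMARCB1, all on the plus strand. The deposited files do not say which start was used in these cells.
SMARCA4: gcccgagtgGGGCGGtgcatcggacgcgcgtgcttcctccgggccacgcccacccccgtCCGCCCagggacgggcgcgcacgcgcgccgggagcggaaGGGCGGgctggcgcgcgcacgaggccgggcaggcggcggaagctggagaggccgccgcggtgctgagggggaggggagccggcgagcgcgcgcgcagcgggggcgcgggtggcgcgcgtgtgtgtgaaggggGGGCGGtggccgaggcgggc
SMARCA2: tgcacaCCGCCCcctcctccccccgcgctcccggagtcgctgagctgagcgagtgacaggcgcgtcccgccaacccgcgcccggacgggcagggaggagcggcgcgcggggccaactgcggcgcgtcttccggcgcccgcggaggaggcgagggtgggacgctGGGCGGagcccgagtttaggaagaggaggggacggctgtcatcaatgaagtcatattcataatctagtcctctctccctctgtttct
SMARCB1: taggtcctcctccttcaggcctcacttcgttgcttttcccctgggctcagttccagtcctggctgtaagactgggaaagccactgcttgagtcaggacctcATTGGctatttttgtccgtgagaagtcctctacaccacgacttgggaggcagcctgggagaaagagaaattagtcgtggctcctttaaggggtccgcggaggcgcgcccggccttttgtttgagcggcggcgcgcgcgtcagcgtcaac

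The SMARCA4 window shown held 82.4% G and C, 44 CpG dinucleotides and 4 GC boxes. The SMARCA2 window shown held 68.8% G and C, 29 CpG dinucleotides and 2 GC boxes. Both genes have other listed starts further along, whose windows held 55.6% G and C and 4 CpG dinucleotides in SMARCA4 and 40.0 to 46.0% G and C and 0 to 8 CpG dinucleotides in SMARCA2, with no GC box. The SMARCB1 window had 58.0% G and C, 16 CpG dinucleotides, 1 CCAAT box and no GC box. Over the windows of all genes, the medians were 58.0% G and C and 11 CpG dinucleotides. Of 35116 windows, 42.6% held a GC box, 32.0% a CCAAT box and 13.3% the cell cycle element CHR (TTTGAA on either strand). Starts were found for 7 of the 10 genes, in 15 windows, of which 6 held a GC box, 3 a CCAAT box and 0 the CHR letters. A match is a description of the letters and not of a bound site.

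In parental H460 cells the ATPase SMARCA4 had the highest level of the 10 genes in every library, at 31.3, 17.2 and 28.0 FPKM in libraries 1, 2 and 3 (25.5 ± 7.35, SD, n = 3). SMARCC2 and SMARCC1, the paired scaffold subunits, followed at 19.7 ± 4.32 and 14.8 ± 4.04 FPKM (SD, n = 3). SMARCD3, a core subunit best known from heart and muscle, was at 10.4 ± 1.15 FPKM, and the BAF subunit ARID1A at 9.23 ± 4.78 FPKM (SD, n = 3). SMARCB1, the core subunit that contacts the nucleosome, was at 8.17 ± 1.33 FPKM. PBRM1, SMARCA2, ARID2 and ARID1B had mean levels of 6.16, 6.05, 4.87 and 3.18 FPKM. Neighbours in this order had overlapping ranges except SMARCA2 (5.60 to 6.81 FPKM) and ARID2 (3.86 to 5.53 FPKM), so the order of most neighbours is within their spread. The levels in all libraries are shown in the plot of FPKM by library.

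**Figure D1:**
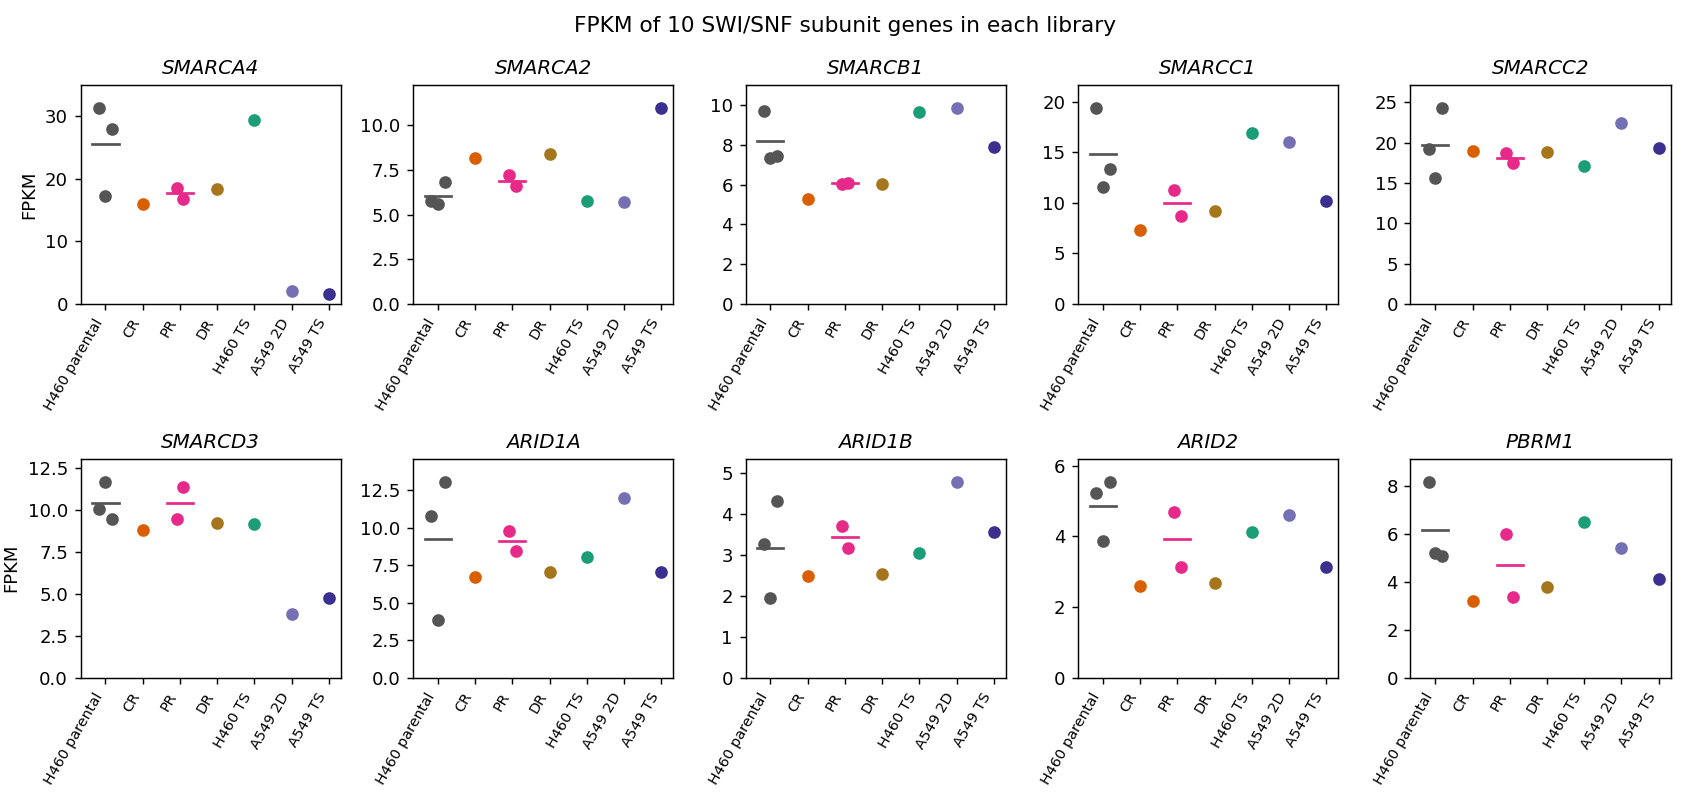
FPKM of each of the 10 subunit genes (vertical axes, linear, each from 0) in every library, by group on the horizontal axes; points are libraries and bars are means of the groups with more than 1 library. SMARCA4 lay between 15.98 and 31.3 FPKM in the H460 libraries and at 2.15 and 1.66 FPKM in A549.

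SMARCA4 (chr19:10961030-11062273, GRCh38.p14 like all positions here) marked the difference between the lines. Its level was 2.15 FPKM in A549 2D cells and 1.66 FPKM in A549 TS cells, from 878 and 741 reads, against 15.98 to 31.3 FPKM over the 8 H460 libraries, from 6075 reads or more. The lines did not overlap, and SMARCA4 went from the highest of the 10 genes in parental H460 cells to the lowest in both A549 libraries. In the fit of 6 libraries (parental H460, H460 TS, A549 2D and A549 TS, with culture as a term), its log2 fold change was -3.77 (SE 0.38). Its level in A549 was the reason for putting this comparison first, so it is given as a description with no test. SMARCA2 (chr9:2015347-2193620), the other ATPase, was at 5.70 FPKM in A549 2D cells, within the parental H460 range of 5.60 to 6.81 FPKM, and at 10.9 FPKM in A549 TS cells, above all H460 libraries. Its log2 fold change between the lines was 0.35 (SE 0.34), short of the threshold (edgeR adjusted p = 0.49).

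The share of ATPase transcript from SMARCA2 differed accordingly. SMARCA2 made up 15.5%, 24.5% and 19.6% of the summed FPKM of SMARCA2 and SMARCA4 in parental libraries 1, 2 and 3, and 16.4% in H460 TS cells. It made up 72.6% in A549 2D cells and 86.8% in A549 TS cells. SMARCA4 thus supplied most of the ATPase transcript in H460, and SMARCA2 most of it in A549. The sum contains SMARCA4, whose low level in A549 was the reason for this comparison. The share between the lines is therefore a description and not a separate result.

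**Figure D2:**
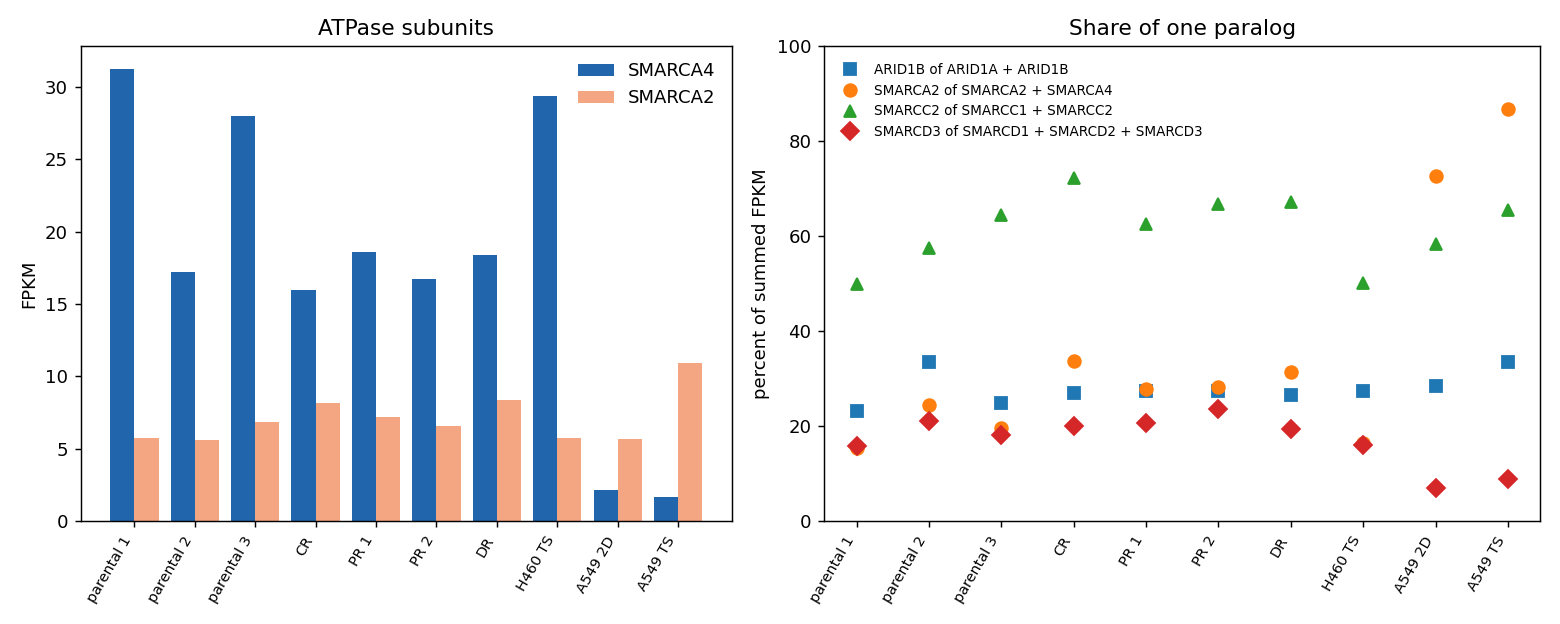
Left, FPKM of the ATPase genes SMARCA4 and SMARCA2 (bars from 0) in each of the 10 libraries. Right, the percentage of summed FPKM that 1 paralog took in each library (points); SMARCA2 took 15.5 to 33.8% in H460 libraries and 72.6 and 86.8% in A549.

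SMARCD3 (chr7:151238780-151277149) was the other subunit that was lower in A549. It was at 3.78 FPKM in A549 2D cells and 4.74 FPKM in A549 TS cells, against 10.06, 11.7 and 9.43 FPKM in the parental libraries and 9.17 FPKM in H460 TS cells, so the lines did not overlap. Its log2 fold change was -1.20 (SE 0.28, edgeR adjusted p = 0.023), and without parental library 2 it was -1.16 and missed the threshold. Parental library 2 is the only library of its name form in this fit, so the fit without it is also the comparison within 1 form. Of the 9 subunits other than SMARCA4, 1 was lower and 0 were higher, beside 9.15% of the 12674 genes tested that were lower and 13.3% that were higher. SMARCD3 took 6.90% and 8.79% of the summed FPKM of its 3 paralogs, SMARCD1, SMARCD2 and SMARCD3, in the A549 libraries, against 15.7% to 23.6% in the H460 libraries.

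For the remaining 7 subunits and SMARCA2 the adjusted p was 0.46 or above (edgeR). The log2 fold changes ran from -0.30 (SE 0.27) for PBRM1, a bromodomain subunit of PBAF, to 0.39 (SE 0.36) for ARID1B, and the SEs allow differences that these 6 libraries could not show. SMARCB1 was the closest to equal, with 9.83 and 7.87 FPKM in A549 and 9.71, 7.35, 7.45 and 9.64 FPKM in the parental and TS libraries of H460 (log2 fold change 0.07, SE 0.23). Compared directly, A549 2D cells differed from the parental mean by more than 2-fold on the log2(FPKM + 1) scale for 2 of the 10 genes, SMARCA4 (-3.03) and SMARCD3 (-1.25), beside 18.7% of all genes.

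None of the 17 measured subunits outside the 10 passed the test between the lines, and 4 of them had an unadjusted p under 0.05 (edgeR), beside 36.8% of all genes; ACTL6B and DPF3 were below the level filter. Of 20 remodelling ATPases of other families, 2 were higher and 2 lower, beside 13.3% and 9.15% of all genes. SMARCA1 of the ISWI family was higher in A549 (log2 fold change 2.00, SE 0.34, edgeR adjusted p = 0.0069), as was CHD2, while CHD1 was lower (-1.39, SE 0.22, edgeR adjusted p = 0.0047), as was 1 further gene of the list.

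In drug-resistant H460 cells most subunit transcripts lay below the parental mean, and the difference passed the test for SMARCC1 and SMARCB1. SMARCC1 (chr3:47585269-47781893) was at 19.3, 11.6 and 13.4 FPKM in the parental libraries and at 7.30 in CR, 11.2 and 8.66 in PR and 9.14 FPKM in DR cells. The groups did not overlap, but the gap between the lowest parental and the highest resistant library was small. Its log2 fold change was -0.72 (SE 0.21, edgeR adjusted p = 0.023). SMARCB1 (chr22:23786966-23838009) was at 9.71, 7.35 and 7.45 FPKM in parental cells, 5.27 in CR, 6.03 and 6.08 in PR and 6.04 FPKM in DR cells. The groups again did not overlap, and the log2 fold change was -0.49 (SE 0.16, edgeR adjusted p = 0.036).

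Thus 2 of 10 subunits were lower and 0 were higher, beside 17.1% of the 12755 genes tested that were lower and 17.6% that were higher. Ranges of resistant and parental libraries failed to overlap, with resistant cells lower, for the same 2 genes, beside 17.3% of all genes. The share of subunits that passed was therefore near that of all genes. The fold changes of 9 of the 10 were below 0, with a median of -0.37 on the log2 scale against 0.0019 over all genes tested. This did not hold alike in the 2 forms of library name. On the log2(FPKM + 1) scale, 9 genes were below 0 for PR 1 against parental 1 and 3. For CR, DR and PR 2 against parental 2, 6 were below 0. The signs were opposite in the forms for 3 genes, ARID1A, ARID1B and SMARCC2.

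These 2 calls depended on the libraries fitted. Without CR, without parental library 1 or without PR library 2, 0 subunits passed, and without DR or with upper-quartile scaling SMARCC1 alone passed. Without PR library 1, SMARCC1, ARID2 and PBRM1 passed, and without parental library 2, SMARCA4, ARID1A and ARID2 passed beside SMARCC1 and SMARCB1. With the form of library name as a covariate 0 subunits passed. Of all genes, 1669 of 12682 tested were lower without CR and 1740 of 12705 without parental library 1. The lower genes were 1541 of 12452 without PR library 2 and 1724 of 12707 without DR. They were 2064 of 12497 without PR library 1 and 1652 of 12665 without parental library 2. Of 12755 genes, 1834 were lower with upper-quartile scaling and 1934 with the form covariate. Within the forms (PR 1 against parental 1 and 3, and CR, DR and PR 2 against parental 2), resistant cells differed from parental cells by -0.48 and -0.43 on the log2(FPKM + 1) scale for SMARCC1 and by -0.44 and -0.30 for SMARCB1, so both genes were lower in each form.

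SMARCA4 was at 15.98 in CR, 18.6 and 16.7 in PR and 18.4 FPKM in DR cells. These values lay below parental libraries 1 and 3, at 31.3 and 28.0 FPKM, and on either side of parental library 2 at 17.2 FPKM. Its log2 fold change of -0.57 (SE 0.22) missed the threshold (edgeR adjusted p = 0.069), and passed it with DESeq2 (adjusted p = 0.047). Within the forms of library name the difference was -0.64 in one and -0.02 in the other, on the log2(FPKM + 1) scale. SMARCC2, the paralog of SMARCC1, lay between 17.4 and 18.9 FPKM in the 4 resistant libraries, and was the highest of the 10 genes in each of them. These values lay inside the parental range of 15.6 to 24.2 FPKM, but below parental libraries 1 and 3, at 19.2 and 24.2 FPKM. The log2 fold change of SMARCC2 was -0.12 (SE 0.21, edgeR adjusted p = 0.69). Without parental library 2 it was -0.29 (SE 0.19, edgeR adjusted p = 0.28).

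Both PBAF subunits had fold changes of similar size that missed the threshold. ARID2, the DNA-binding subunit of PBAF, was at 5.21, 3.86 and 5.53 FPKM in parental cells and 2.58, 4.69, 3.14 and 2.69 FPKM in CR, PR 1, PR 2 and DR cells (log2 fold change -0.59, SE 0.23, edgeR adjusted p = 0.071). PBRM1 was at 8.18, 5.23 and 5.08 FPKM in parental cells and 3.22, 6.00, 3.38 and 3.81 FPKM in the resistant libraries (-0.61, SE 0.24, edgeR adjusted p = 0.075). For each of them PR 1 was the highest resistant library and lay inside the parental range, while the other resistant libraries lay below it.

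The BAF subunits ARID1A and ARID1B, which bind DNA and exclude each other from the complex, varied most among the parental libraries. ARID1A was at 10.8, 3.86 and 13.04 FPKM in parental libraries 1, 2 and 3, a 3.37-fold range, and at 6.75, 9.78, 8.44 and 7.05 FPKM in CR, PR 1, PR 2 and DR cells. All resistant values lay inside the parental range, and the log2 fold change was -0.26 (SE 0.36, edgeR adjusted p = 0.60). ARID1B was at 3.28, 1.95 and 4.31 FPKM in parental cells and 2.49, 3.70, 3.17 and 2.54 FPKM in resistant cells, also inside the parental range (-0.10, SE 0.27, edgeR adjusted p = 0.79). Without parental library 2 the log2 fold change of ARID1A was -0.65 and passed the threshold, and that of ARID1B was -0.38 and did not pass.

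SMARCA2 was the only one of the 10 genes with a fold change above 0 in this comparison. It was at 5.73, 5.60 and 6.81 FPKM in parental cells and at 8.16, 7.20, 6.59 and 8.39 FPKM in CR, PR 1, PR 2 and DR cells, with PR 2 inside the parental range (log2 fold change 0.33, SE 0.19, edgeR adjusted p = 0.20). SMARCA2 made up 19.9% ± 4.53 (SD, n = 3) of the summed ATPase FPKM in parental cells and 30.3% ± 2.78 (SD, n = 4) in resistant cells (33.8% in CR, 27.9% and 28.3% in PR and 31.3% in DR), in values that did not overlap. The two-sided exact permutation p was 0.029, the smallest that 35 splits allow, and 0.11 after adjustment over the 4 paralog shares, which misses the threshold. The difference of 10.5 percentage points lay between 8.27 and 12.8 when a parental or PR library was left out, and was 10.4 and 6.59 within the forms of library name. The share of SMARCC2 in SMARCC1 and SMARCC2 was 57.2% ± 7.29 and 67.2% ± 3.95 (exact permutation p = 0.086, adjusted p = 0.17), and the difference of 9.98 points was 6.29 without parental library 1 and 5.40 within the form of PR 1. The share of ARID1B in ARID1A and ARID1B was 27.2% ± 5.51 and 27.1% ± 0.42 (exact permutation p = 0.97), and SMARCD3 took 18.3% ± 2.68 and 20.9% ± 1.87 of its paralogs (exact permutation p = 0.23, adjusted p = 0.30), where the difference of 2.61 points was 1.33 without parental library 1, 1.70 without PR 2 and 3.998 without parental library 2.

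SMARCD3 itself, lower in A549, was at 8.83, 9.48, 11.4 and 9.21 FPKM in CR, PR 1, PR 2 and DR cells, close to the parental libraries (log2 fold change -0.14, SE 0.16, edgeR adjusted p = 0.51).

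**Figure D3:**
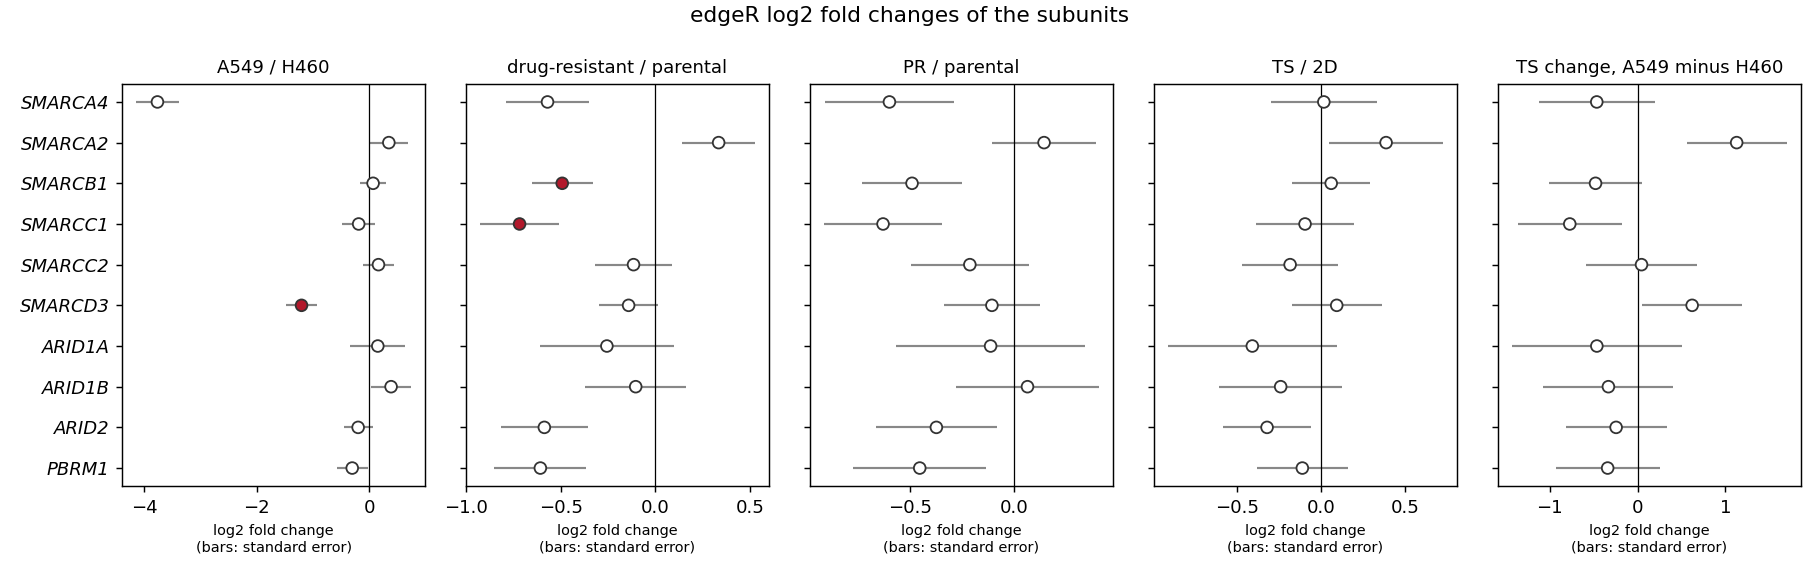
edgeR log2 fold changes (points, horizontal axes) of the 10 subunit genes with standard errors (bars), 1 panel per comparison with its own scale; filled points passed an adjusted p of 0.05, and SMARCA4 in the first panel was not tested. SMARCD3 in A549 and SMARCB1 and SMARCC1 in drug-resistant cells are filled, each below 0.

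By drug, no subunit differed from the parental mean by more than 2-fold on the log2(FPKM + 1) scale, beside 12.8% of all genes for CR cells, 13.6% for the mean of the PR libraries and 11.3% for DR cells. CR cells had the lowest value of SMARCC1, SMARCB1, SMARCA4, ARID2, PBRM1 and SMARCD3 of all H460 libraries. The share of all genes with their lowest value in CR was not computed. In CR cells 9 of the 10 genes lay below the parental mean, with a median difference of -0.40 against -0.04 for all genes. In DR cells 9 of 10 also lay below, with a median of -0.29 against -0.01. In PR cells 6 of 10 lay below, with a median of -0.18 against 0.05. With 1 library each, CR and DR have no replicate check. The PR libraries alone against parental cells gave 0 subunits past the threshold, beside 21.8% of all genes, and 0 at an unadjusted p under 0.05 (edgeR), beside 36.6% of all genes, and the smallest adjusted p was 0.14, for SMARCC1 (log2 fold change -0.63, SE 0.28).

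Among the other subunits, 6 of 17 tested were lower in drug-resistant cells and 0 were higher, beside the 17.1% and 17.6% of all genes. ACTL6A, an actin-related subunit known for its part in proliferating progenitor cells, fell by 1.08 on the log2 scale (SE 0.16, edgeR adjusted p = 0.00078), and ACTB, the actin subunit that is far more abundant in the cytoskeleton and whose reads can be shared with its pseudogenes, by 1.14 (SE 0.25, edgeR adjusted p = 0.0062). ACTL6A was at 34.5, 35.6 and 23.7 FPKM in parental cells and 13.9 to 15.9 FPKM in the 4 resistant libraries. PHF10, a PBAF subunit, fell by 0.77 (SE 0.17, edgeR adjusted p = 0.0072), and BCL7C, DPF1 and SMARCD2 were lower as well. ACTL6A and ACTB also passed in PR cells alone.

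Of the 20 remodelling ATPases of other families, 5 were lower and 2 higher in drug-resistant cells, shares near the 17.1% and 17.6% of all genes. HELLS, known to be expressed in dividing cells, had a log2 fold change of -1.77 (SE 0.28, edgeR adjusted p = 0.0012), and ERCC6, which acts in transcription-coupled repair, one of 1.43 (SE 0.22, edgeR adjusted p = 0.00089). CHD1, which acts at transcribed genes, had -1.11 (SE 0.20, edgeR adjusted p = 0.0019). All 12 proliferation genes were lower (edgeR adjusted p of 0.0038 or less), with a median log2 fold change of -2.24, and their summed level was 660.5 to 1038 FPKM in parental and 157.8 to 270.2 FPKM in resistant libraries. Leukocyte markers summed to 2.78 to 9.49 FPKM in parental and 11.5 to 17.2 FPKM in resistant libraries, nearly all from CD14, with PTPRC and CD3E near 0. Fibroblast markers summed to 1.1 to 5.81 and 4.62 to 13.03 FPKM. The part of these in the lower subunit levels was not tested.

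Transcript length moved with the libraries and with these genes. The lengths implied by reads and FPKM put 9 of the 10 genes above the median of 3441 bases over all genes, from 5428 bases for SMARCC2 to 11435 bases for ARID1B, and SMARCD3 below it at 2052 bases. Against the mean of parental libraries 1 and 3, the median difference of all genes on the log2(FPKM + 1) scale ran from 0.32 in the shortest of 8 length bins to -0.13 in the longest in parental library 2. It ran from 0.07 to -0.24 in CR, from 0.05 to -0.14 in DR and from 0.11 to -0.09 in PR 2. In PR 1 it ran in the opposite sense, from -0.11 to 0.14, so the 2 PR libraries differed in this. In a fit with an offset for length in each library, added after seeing the data, 5 subunits passed as lower in drug-resistant cells: SMARCC1, SMARCB1, SMARCA4, ARID2 and PBRM1. Of the 12755 genes tested in that fit, 2442 were lower and 2390 were higher.

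**Figure D4:**
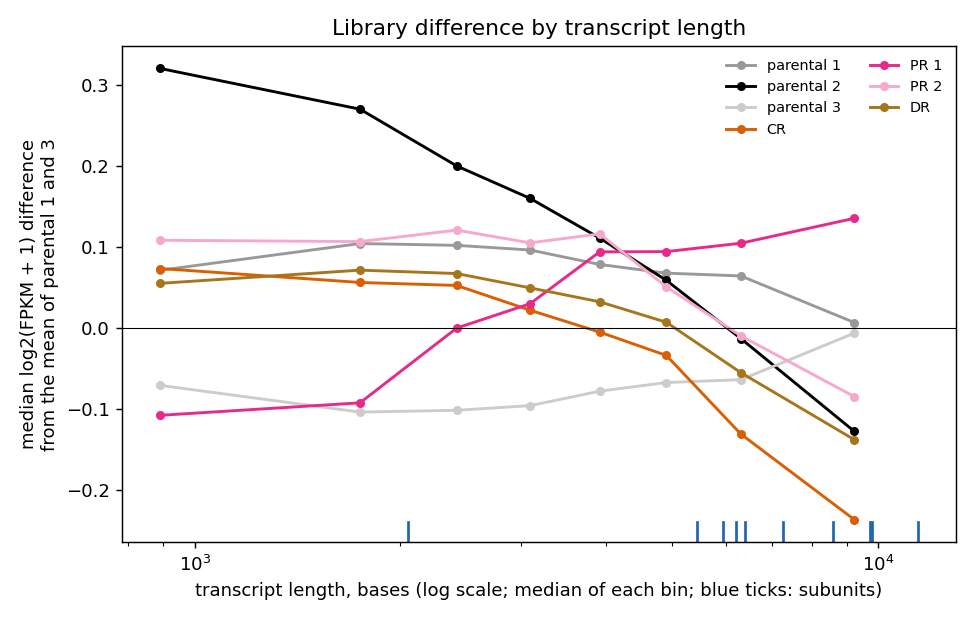
Median difference in log2(FPKM + 1) from the mean of parental libraries 1 and 3 (vertical axis) in 8 bins of genes by transcript length in bases (horizontal axis, log scale; points at bin medians), 1 line per H460 2D or drug-resistant library; blue ticks mark the 10 subunit genes. Parental library 2 runs from 0.32 to -0.13 and CR from 0.07 to -0.24, and 9 of 10 ticks lie right of 3441 bases.

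TS culture showed no change in any of the 10 genes that passed the test. In H460 TS cells 9 of the 10 lay inside the range of the parental libraries, among them SMARCA4 at 29.4 FPKM, SMARCA2 at 5.75 FPKM, SMARCC1 at 16.9 FPKM, SMARCC2 at 17.04 FPKM, ARID1A at 8.05 FPKM and PBRM1 at 6.51 FPKM. SMARCD3, at 9.17 FPKM, lay just below the parental minimum of 9.43 FPKM. Against parental libraries 1 and 3 alone, ARID1A, ARID1B, ARID2 and SMARCC2 in H460 TS cells also lay below the range. For ARID1A these libraries were at 10.8 and 13.04 FPKM, and for SMARCC2 at 19.2 and 24.2 FPKM. The share of all genes inside these ranges was not computed. No subunit differed by more than 2-fold, beside 3.42% of all genes, and the median difference was -0.02 against 0.01 for all genes. Fibroblast markers summed to 28.3 FPKM there, mostly LUM, with DCN at or under 0.319 FPKM in every library, and leukocyte markers to 8.68 FPKM.

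In A549 TS cells 8 of the 10 genes lay below A549 2D cells, and again no subunit differed by more than 2-fold on the log2(FPKM + 1) scale, beside 7.25% of all genes. SMARCA2 showed the largest difference of the 10, 0.83, from 5.70 FPKM in 2D to 10.9 FPKM in TS cells. ARID1A went from 12.01 to 7.03 FPKM (-0.70) and SMARCC1 from 16.1 to 10.2 FPKM (-0.61), while SMARCC2 went from 22.4 to 19.3 FPKM (-0.21). The proliferation genes summed to 962.2 FPKM in A549 2D and 560.03 FPKM in A549 TS cells, and their part in these differences was not tested. Each is a single library, with no replicate check.

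Over both lines, TS against 2D gave 0 subunits past the threshold (edgeR), beside 0.15% of all genes, and 0 at an unadjusted p under 0.05 (edgeR), beside 6.22%. DESeq2 also gave 0, beside 2.51% of all genes. Log2 fold changes ran from -0.41 (SE 0.50) for ARID1A to 0.39 (SE 0.34) for SMARCA2. The difference between the lines in their TS response was tested as an interaction, which gave 0 subunits past the threshold (edgeR), beside 0.639% of all genes, and 0 at an unadjusted p under 0.05, beside 7.36%. For SMARCA2 it was 1.13 (SE 0.57, edgeR adjusted p = 0.79) and more positive in A549. Here the spread comes from the 3 parental libraries alone, and the lone libraries are assumed to vary like them. With 1 library in 3 of the 4 arms the test had little room to call a gene, so 0 calls do not show that the lines responded alike.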

How the data were processed

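Poly(A) RNA of 10 libraries was sequenced on an Illumina HiSeq after TruSeq mRNA preparation. The submitters' processing notes name bcl2fastq 1.8.4, Trimmomatic, HISAT2 2.1.0, StringTie 2.1.3b and the GRCh38 build; the step each performed is not given in the sources used here. The authors deposited 1 table with a read count, an FPKM value (scaled by length and depth) and a TPM value per gene and library. TPM values were not analysed. The study defined changed genes by a 2-fold cut-off without a test.

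The deposited counts were tested with edgeR 4.0.16 in R 4.3.3 (TMM, quasi-likelihood), for genes at 1 FPKM or more in at least 2 fitted libraries, with Benjamini-Hochberg adjustment over all genes tested and a threshold of 0.05. Single-library differences used log2(FPKM + 1), a scale that understates changes of low genes. Paralog shares were tested by exact permutation over all splits, in Python 3.11.15 with numpy 2.4.6. The script was tested on simulated data. Alternatives used DESeq2 1.42.0 and limma 3.58.1, other scalings and filters, left-out libraries and, chosen after seeing the data, a length offset in 20 bins, fits without CR or DR and differences within library-name forms.

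The 10 genes, the lists of other subunits, other remodellers, proliferation genes and cell type markers were chosen with earlier results of these data known. One leukocyte marker is not reported here and is in no sum. All 10 were named, with other subunits past the threshold and up to 3 genes per comparison from the remaining lists by adjusted p. Depth of 59499787 to 89541774 reads per library bounds the counting error only.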

Additional observations from a re-analysis of the deposited data

Results flagged for a closer look

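In groups of 4 libraries, a gene was singled out when its highest or lowest library was far from the rest relative to the whole range (Dixon's criterion), which chance does for about 1 in 20 groups. Of the 10 genes in the 4 drug-resistant libraries, 2 met it, and the share of all genes that did so was not computed. These libraries hold survivors of different drugs, so the rate of 1 in 20 need not hold for them. SMARCB1 had its lowest level in CR, at 5.27 FPKM, while PR 1, PR 2 and DR lay between 6.03 and 6.08 FPKM. SMARCC2 had its lowest level in PR 2, at 17.4 FPKM, while the others lay between 18.7 and 18.9 FPKM.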

How the results depend on the processing

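All comparisons of the 10 genes rest on 1 to 4 libraries a group. Nothing says whether the 2 forms of library name are batches. The count of all genes past the threshold was 2843 for A549 against H460, 2742 for PR, 19 for TS and 81 for the TS interaction, and the counts of subunits were 1 for A549 and 2 for drug-resistant cells. Except where given here, counts stayed within 1.5 times and directions held; the cause of each difference was not tested. With DESeq2 the TS count was 318 and the interaction count 375, and SMARCA4 passed in drug-resistant cells beside SMARCC1 and SMARCB1. With limma on log2(FPKM + 1) they were 29 and 27, 1 subunit passed in drug-resistant cells, and the log2 fold change turned to 0.12 for ARID1A and 0.0062 for SMARCD3 in PR and to -0.029 for SMARCC2 in the interaction. Without the FPKM filter the counts were 34 for TS, 0 for the interaction (1637 at an unadjusted p under 0.05 by edgeR) and 5434 for PR, and the PR changes turned to -0.12 for ARID1B and -0.037 for SMARCA2, with a median shift of all genes of 0.36, and the interaction of SMARCC2 to -0.0039. With all 10 libraries the TS count was 347, SMARCA4 in TS was -0.043 and SMARCB1 in A549 -0.050. With the form covariate 0 subunits passed in drug-resistant cells, and ARID1A turned to 0.35, ARID1B to 0.25 and SMARCC2 to 0.022. Upper-quartile scaling gave 1 subunit there and -0.00096 for SMARCA4 in TS, and the length offset gave 5 subunits.

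The replicate numbers are shared by PR and parental libraries 1 and 2, whose deviations correlated with r = 0.156 across 12496 genes; with 2 pairs this does not show pairing. With the replicate block the PR count was 4267, ARID1A 0.49 and SMARCC2 0.059, against 3738, 0.31 and 0.051 for the same 4 libraries without it. Leaving out 1 library at a time, subunits past the threshold ranged from 0 to 5 in drug-resistant cells (0 without CR, parental 1 or PR 2 and 5 without parental 2) and from 0 to 1 in A549 (0 without parental 2). Counts of all genes ranged from 1835 to 2926 for A549 (lowest without parental 2), 389 to 3738 for PR (lowest without PR 2; 977 without PR 1 and 1621 without parental 2), 2 to 21 for TS (2 without parental 2, 6 without parental 3) and 89 to 385 for the interaction (highest without parental 1). In drug-resistant cells the log2 fold change ranged from -0.645 to 0.158 for ARID1A, -0.38 to 0.22 for ARID1B and -0.29 to 0.14 for SMARCC2. In PR it ranged from -0.50 to 0.31 for ARID1A, -0.21 to 0.40 for ARID1B, -0.39 to 0.051 for SMARCC2 and -0.17 to 0.059 for SMARCD3. In TS it ranged from -0.21 to 0.014 for PBRM1, -0.14 to 0.091 for SMARCA4 and -0.016 to 0.11 for SMARCB1, in A549 from -0.090 to 0.39 for ARID1A and -0.011 to 0.0999 for SMARCB1, and in the interaction from -0.22 to 0.22 for SMARCC2. The ARID1B share differed by -2.11 to 3.00 percentage points, by 0.21 from read counts, and by 3.38 and -6.56 within the library-name forms, where the SMARCD3 share differed by -0.062 in one.

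For the single-library differences, a pseudocount of 0.1 gave 2644 genes over 2-fold for CR, 2693 for PR, 2351 for DR, 870 for H460 TS and 1481 for A549 TS, against 1629, 1741, 1444, 433 and 919. Against parental library 1 alone CR had 2495 of 12755 genes and 2 of the 10 subunits over 2-fold, and DR had 1 of the 10 subunits. Against parental library 2 alone PR had 1 of the 10 subunits, and against parental library 3 alone H460 TS had 817 of 12674 genes.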
